A study of Mus musculus with 16 samples.

Results

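The receptor genes of the common gamma chain cytokines were examined in donor T cells recovered from mice after haematopoietic stem cell transplantation, with attention to T cells that had reached the ovary. The 8 genes were Il7r, Il2ra, Il2rb, Il2rg, Il15ra, Il21r, Il4ra and Il9r, of 20972 genes with a named probe on the array. A probe belonged to a gene when its transcript accession did, and a gene with more than 1 probe was read from the one whose mean over the 16 arrays was highest. Il15ra, Il4ra and Il9r had 2 probes each and the other 5 genes had 1. All 8 genes passed the filter on dim probes, which kept a probe if some group had it well above background on all of its arrays, and Il9r passed it through the syngeneic splenic CD4 cells alone.

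The common gamma chain, encoded by Il2rg, is the shared subunit of the receptors for interleukins 2, 4, 7, 9, 15 and 21. Each receptor pairs it with chains of its own: Il2ra and Il2rb for interleukin-2, Il15ra and Il2rb for interleukin-15, Il7r for interleukin-7, Il4ra for interleukin-4, Il21r for interleukin-21 and Il9r for interleukin-9. Binding of the ligand activates the Janus kinases Jak1 and Jak3, which phosphorylate STAT proteins, mainly Stat5 downstream of interleukins 2, 7, 9 and 15, Stat6 downstream of interleukin-4 and Stat3 downstream of interleukin-21. Resting T cells depend on interleukin-7 for survival and carry much Il7r, and T cells that become effectors are known to lower Il7r and to raise Il2ra and Il2rb. Cish and the Socs genes are induced by these cytokines and dampen the signal.

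Promoters are shown for Il7r, Il2ra and Il4ra, which had the largest called differences among the receptors with a promoter entry. The sequences are RefSeq's, on the mouse build GRCm38.p6, 5′ to 3′ on the gene's strand, and run from 250 bases before the start of transcription to 50 bases after it. Of the 8 genes, 7 had an entry and Il2rb had none. Il7r lies on the minus strand of chromosome 15 at chr15:9529827-9530126, Il2ra on the plus strand of chromosome 2 at chr2:11642542-11642841 and Il4ra on the plus strand of chromosome 7 at chr7:125552021-125552320. Capitals mark matches to 5 motifs searched on both strands.
Il7r promoter: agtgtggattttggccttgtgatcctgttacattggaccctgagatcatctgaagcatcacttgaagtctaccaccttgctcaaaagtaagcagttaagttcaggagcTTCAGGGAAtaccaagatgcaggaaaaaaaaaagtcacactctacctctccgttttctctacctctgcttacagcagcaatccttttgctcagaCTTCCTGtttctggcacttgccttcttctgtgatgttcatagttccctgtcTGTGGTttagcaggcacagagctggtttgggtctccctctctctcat
Il2ra promoter: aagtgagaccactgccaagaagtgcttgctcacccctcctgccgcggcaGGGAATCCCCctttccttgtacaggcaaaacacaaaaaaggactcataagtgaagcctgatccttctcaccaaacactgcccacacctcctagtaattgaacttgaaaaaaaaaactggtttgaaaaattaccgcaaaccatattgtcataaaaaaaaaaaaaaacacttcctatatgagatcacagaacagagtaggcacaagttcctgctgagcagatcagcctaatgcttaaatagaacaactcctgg
Il4ra promoter: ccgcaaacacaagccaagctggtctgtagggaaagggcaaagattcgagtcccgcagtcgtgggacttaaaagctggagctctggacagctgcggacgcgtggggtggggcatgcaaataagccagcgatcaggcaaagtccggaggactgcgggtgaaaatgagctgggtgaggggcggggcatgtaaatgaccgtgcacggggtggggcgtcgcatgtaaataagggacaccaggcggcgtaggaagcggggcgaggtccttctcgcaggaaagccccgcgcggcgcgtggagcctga
The motifs were TTCNNNGAA for STAT proteins, CAGGAAG for ETS proteins, TGTTTAC for forkhead proteins, TGTGGT for RUNX proteins and a 10-letter motif for NF-kappaB, whose match in Il2ra is the capitals shown, and they were chosen after the sequences had been seen. Il7r held a STAT match whose first base lay at position -142 from the start, an ETS match on the opposite strand at -48 and a RUNX match at 3. Il2ra held an NF-kappaB match at -201. Il4ra held none of the 5 in this window. Of 32851 promoters of the same length, 8.3% held the STAT motif, 13.3% the ETS motif, 3.65% the forkhead motif, 16.8% the RUNX motif and 4.16% the NF-kappaB motif, so each match is a description of letters and not a measured binding site. Of these genes 2 pairs are neighbours in the same annotation: Il2ra lies next to Il15ra on chromosome 2, and Il4ra next to Il21r on chromosome 7.

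All arrays came from female mice of C57BL/6 background, and the labels give neither the strains of the donor and recipient pairs nor the mice's age, conditioning or time after transplantation. Allogeneic transplantation, in which the graft comes from a genetically different donor and its T cells can attack the recipient, gave ovarian CD8+ cells (4 arrays), splenic CD8+ cells (3), ovarian CD4+ cells (2) and splenic CD4+ cells (2). Syngeneic transplantation, from a genetically matched donor, gave splenic CD8+ cells (3) and splenic CD4+ cells (2), and there was no syngeneic ovarian group. Cells had been double-sorted into Trizol, and their total RNA was amplified, labelled with Cy3 and hybridised to 1-colour arrays. Nothing in the labels ties each replicate to a mouse of its own, so p-values measure the spread between these samples, which may be technical.

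Signals are given as log2 of the processed signal minus the array's 75th percentile of it, so that 0 is the brightness of that percentile, and levels are compared between groups for 1 probe and never between probes. The 75th percentile ranged from 67.6 to 450 units over the 16 arrays and 41.8% to 59.4% of spots were well above background. The dimmest arrays were replicate 2 of the allogeneic splenic CD4 cells (67.6) and replicate 2 of the ovarian CD4 cells (68.2). Replicate 1 of the same groups followed, at 141 and 133, and every array of the other groups gave at least 156. Both allogeneic CD4 groups were thus dimmer than all others, and brightness and group cannot be told apart where they are compared with other groups. The arrays lay on 2 slides of 8 arrays each with every group on both. Cd4, on the same scale without the log, ran from 22.3 to 47.2 in CD4 groups and from 2.67 to 5.46 in CD8 groups, and Cd8a was not well above background on any CD4 array. Cd8b1 was well above background on 5 of 6 CD4 arrays, at log2 signals from -2.82 to 0.17 against 5.36 to 6.74 in CD8 groups. Differences are given on the log2 scale ± SE from a limma model fitted to all 16 arrays, and a gene counts as called where its p, adjusted by Benjamini and Hochberg's method over 22831 features, was under 0.05. In a sorted population, fewer cells that express a gene and less RNA per cell cannot be told apart.

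**Figure D1:**
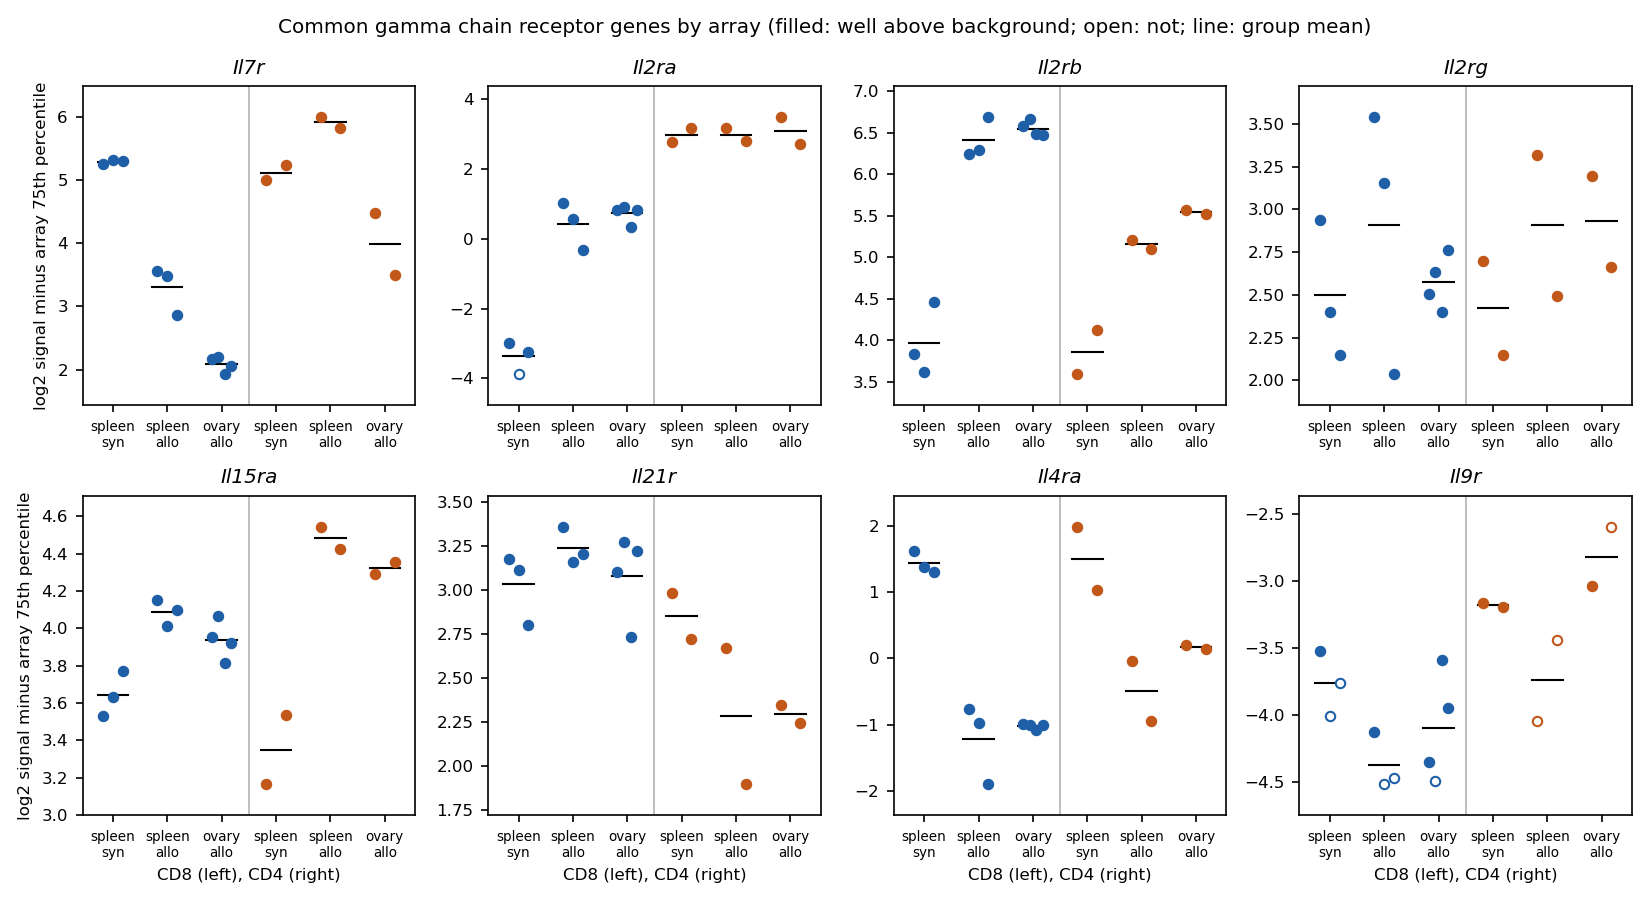
Log2 signal minus the array's 75th percentile (vertical axes, a separate range for each gene) of the 8 receptor genes on each of the 16 arrays, by group (horizontal axes), with CD8 cells in blue on the left and CD4 cells in orange on the right. Filled points are well above background, open points are not, and lines are group means; Il7r stands lowest in the ovarian CD8 cells, Il2rb lowest in both syngeneic groups, and Il2ra lowest in the syngeneic CD8 cells, where 1 of 3 points is open.

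Il2rg, the shared chain, was well above background on all 16 arrays and its groups overlapped throughout. The values were 2.94, 2.40 and 2.15 in syngeneic splenic CD8 cells, 3.54, 3.15 and 2.04 in allogeneic splenic CD8 cells and 2.51, 2.63, 2.40 and 2.76 in ovarian CD8 cells. In CD4 cells they were 2.70 and 2.15 in the syngeneic spleen, 3.32 and 2.49 in the allogeneic spleen and 3.20 and 2.66 in the ovary. The 6 group means lay between 2.42 and 2.93, and every group overlapped the next in the order of means. Il2rg was not called in any of the 9 comparisons. The allogeneic minus syngeneic difference was 0.41 ± 0.36 in CD8 cells, with a 95% interval from -0.38 to 1.20. Without replicate 3 of the allogeneic splenic CD8 cells, whose value of 2.04 was the lowest of the 16 arrays, that difference was 0.85 and was called (adjusted p = 0.0443).

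Il2rb, the signalling chain shared by the receptors for interleukins 2 and 15, was higher in allogeneic than in syngeneic cells of both subsets. In CD8 cells it measured 3.84, 3.61 and 4.45 in the syngeneic spleen, 6.24, 6.30 and 6.69 in the allogeneic spleen, and 6.58, 6.66, 6.48 and 6.47 in the ovary. In CD4 cells it measured 3.59 and 4.12 in the syngeneic spleen, 5.21 and 5.10 in the allogeneic spleen, and 5.57 and 5.52 in the ovary. Every allogeneic array, from either organ, stood above every syngeneic array. In the order of group means the ovarian and splenic CD8 cells of allogeneic recipients overlapped at the top and the syngeneic groups overlapped at the bottom. Between syngeneic and allogeneic spleen Il2rb rose by 2.44 ± 0.21 in CD8 cells (5.43-fold, adjusted p = 3.06e-06 by limma) and by 1.30 ± 0.26 in CD4 cells (2.46-fold, adjusted p = 0.00611). The CD8 value was 2.43 on slide 1 and 2.66 on slide 2, and the call held under every alternative run. The CD4 value was 1.62 on slide 1 and 0.98 on slide 2, and its call was lost in 5 of 29 alternatives, among them leaving out syngeneic splenic CD4 replicate 1 (1.03, adjusted p = 0.0756). NK cells also express Il2rb. Summed over Ncr1, Klrb1c, Klra8 and Klrk1, on the scale of the 75th percentile without the log, NK markers ran from 1.1 to 2.25 in syngeneic and from 2.26 to 3.10 in allogeneic splenic CD8 cells, where 1 of 3 tested rose, and from 1.21 to 1.62 and from 0.213 to 0.291 in CD4 cells, where 2 of 3 fell. On the 5 arrays of the allogeneic spleen Ncr1 never passed the background threshold. Between transplants 38.4% of all features were called in CD8 cells and 16.1% in CD4 cells. The part of the NK markers in the Il2rb results was not tested.

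Il2ra, the chain that completes the high-affinity interleukin-2 receptor and a marker of activated and of regulatory T cells, differed between transplants in CD8 cells. Its values in CD8 cells were -2.99, -3.88 and -3.25 in the syngeneic spleen, where 2 of 3 arrays were well above background, against 1.02, 0.57 and -0.34 in the allogeneic spleen. The ovarian CD8 cells gave 0.84, 0.93, 0.33 and 0.82. In CD4 cells the values were 2.78 and 3.17 in the syngeneic spleen, 3.18 and 2.80 in the allogeneic spleen, and 3.50 and 2.71 in the ovary. All CD4 arrays stood above all CD8 arrays, the 3 CD4 groups overlapped one another, and the syngeneic CD8 arrays stood below all others. The rise in allogeneic CD8 cells was 3.79 ± 0.35 (13.9-fold, adjusted p = 4.44e-06), with 3.79 on slide 1 and 3.23 on slide 2. The size depends on the background correction: with normexp correction of the unprocessed signals and quantile normalization the rise was 1.94 (3.83-fold, adjusted p = 5.93e-05). In CD4 cells the same difference was 0.01 ± 0.43 (95% interval -0.91 to 0.94).

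Markers of regulatory T cells moved with Il2ra in CD8 cells. Summed over Foxp3, Ctla4, Ikzf2 and Tnfrsf18, on the scale of the 75th percentile without the log, they ran from 11.8 to 14.2 in syngeneic splenic CD8 cells, from 44.1 to 44.4 in allogeneic splenic CD8 cells and from 40.8 to 46.3 in ovarian CD8 cells, and 4 of 4 rose between syngeneic and allogeneic spleen. Calls in either direction covered 38.4% of all features there, and 16.1% in CD4 cells. The part of these markers in the Il2ra result was not tested. In CD4 cells the same sum ran from 35.6 to 43.2 in the syngeneic spleen and from 86.6 to 113 in the allogeneic spleen, and 3 of 4 rose, at an Il2ra difference of 0.01.

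Il15ra, the private chain that binds and presents interleukin-15, was higher in allogeneic than in syngeneic splenic cells of both subsets. Its values were 3.53, 3.63 and 3.77 in syngeneic and 4.15, 4.01 and 4.10 in allogeneic splenic CD8 cells, and 3.95, 4.07, 3.82 and 3.92 in ovarian CD8 cells. In CD4 cells they were 3.16 and 3.53 in the syngeneic spleen, 4.54 and 4.42 in the allogeneic spleen, and 4.29 and 4.35 in the ovary. Arrays of the syngeneic groups overlapped each other and stood below all allogeneic arrays. The rise was 0.44 ± 0.13 in CD8 cells (1.36-fold, adjusted p = 0.0181) and 1.13 ± 0.16 in CD4 cells (2.20-fold, adjusted p = 0.000688). In CD8 cells the call was lost under 7 of 30 alternatives, among them leaving out allogeneic splenic CD8 replicate 1 or syngeneic splenic CD8 replicate 1 or 2 (adjusted p up to 0.0668) and quantile normalization (0.25, adjusted p = 0.164). The other probe of the gene gave 1.5 in CD8 cells and was called, so the probes shared the direction and differed in size.

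Il7r, the private chain of the interleukin-7 receptor, was well above background on all 16 arrays and differed between transplants, organs and subsets. CD8 cells gave 5.24, 5.31 and 5.30 in the syngeneic spleen, 3.56, 3.47 and 2.87 in the allogeneic spleen, and 2.17, 2.20, 1.93 and 2.06 in the ovary, so that the 3 groups stood apart with no overlap. CD4 cells gave 4.99 and 5.23 in the syngeneic spleen, 5.99 and 5.82 in the allogeneic spleen, and 4.47 and 3.49 in the ovary, also without overlap but in another order. Over all groups the order ran from allogeneic splenic CD4 cells (5.91 ± 0.12, SD, n = 2) to ovarian CD8 cells (2.09 ± 0.12, SD, n = 4), and among neighbours only the ovarian CD4 and allogeneic splenic CD8 cells overlapped.

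Between syngeneic and allogeneic spleen Il7r in CD8 cells fell by 1.98 ± 0.24 (3.96-fold, adjusted p = 3.71e-05), a call held under every alternative run, with -1.73 on slide 1 and -2.44 on slide 2. In CD4 cells the same difference was 0.80 ± 0.29 (adjusted p = 0.0822). It was called with the slide as a block (adjusted p = 0.0424), on slide 1 alone (1.0, adjusted p = 0.0175) and without either ovarian CD4 array, and it was 0.59 on slide 2. From allogeneic spleen to ovary Il7r fell by a further 1.21 ± 0.22 in CD8 cells (2.32-fold, adjusted p = 0.0323) and fell by 1.92 ± 0.29 in CD4 cells (3.80-fold, adjusted p = 0.0138). The CD8 value was -1.33 on slide 1 and -0.87 on slide 2, and the CD4 value -1.52 and -2.33. The CD8 call was lost without ovarian CD8 replicate 1, 2 or 4, allogeneic splenic CD8 replicate 1 or 2, or syngeneic splenic CD8 replicate 1 or 2, with adjusted p up to 0.173 and differences from -1.43 to -1.08. The CD4 call was kept when any 1 array was left out, with differences from -2.41 to -1.44 and adjusted p up to 0.0434, and was lost on slide 2 alone, with array weights and when only the groups compared were fitted.

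Il4ra, the signalling chain of the interleukin-4 receptor, was lower in allogeneic than in syngeneic cells of both subsets. CD8 cells measured 1.63, 1.39 and 1.31 in the syngeneic spleen, -0.76, -0.97 and -1.90 in the allogeneic spleen, and -0.98, -1.01, -1.08 and -1.01 in the ovary. CD4 cells measured 1.99 and 1.03 in the syngeneic spleen, -0.04 and -0.94 in the allogeneic spleen, and 0.20 and 0.14 in the ovary. Every syngeneic array was above 1 and every allogeneic array was at or below 0.20. Il4ra fell by 2.65 ± 0.32 in CD8 cells (6.29-fold, adjusted p = 3.75e-05) and fell by 2.00 ± 0.39 in CD4 cells (4.00-fold, adjusted p = 0.00488). The CD8 call held under every alternative run, at -2.50 on slide 1 and -3.25 on slide 2, and with the other probe, which read -1.28, -1.21 and -1.25 in the syngeneic and -2.96, -2.90 and -3.22 in the allogeneic spleen, a smaller difference of -1.78. With normexp correction and quantile normalization the CD8 difference was -1.89. The CD4 values were -2.03 on slide 1 and -1.97 on slide 2, and the CD4 call was lost without syngeneic splenic CD4 replicate 1 (adjusted p = 0.0620). The other probe gave, in CD4 cells, -0.89 (1.86-fold, adjusted p = 0.0268).

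B cells also express Il4ra, and some B-cell markers fell where it fell. Summed over Cd79a, Cd79b, Ms4a1, Cd22, Pax5 and Fcmr, they ran from 14.4 to 22.8 in syngeneic and from 3.54 to 5.37 in allogeneic splenic CD8 cells, and 4 of 6 fell. In CD4 cells the sum ran from 31.3 to 64.5 in the syngeneic spleen and from 9.26 to 9.45 in the allogeneic spleen, and 2 of 6 fell. In this comparison 38.4% of all features were called in CD8 cells and 16.1% in CD4 cells, in either direction. Macrophages and monocytes also express Il4ra, and of their markers 2 of 6 fell in CD8 cells and 0 of 6 in CD4 cells. The sums of these ran from 66.3 to 81.8 in syngeneic and from 35.7 to 57.6 in allogeneic splenic CD8 cells. In CD4 cells they ran from 66.5 to 92.1 and from 93.9 to 165. The part of either marker list in the fall of Il4ra was not tested. From allogeneic spleen to ovary the B-cell sum in CD4 cells went to between 2.76 and 2.80, with Cd79a, Ms4a1, Pax5 and Fcmr not well above background on either ovarian array, at an Il4ra difference of 0.66 ± 0.39 (adjusted p = 0.452).

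Il21r, the private chain of the interleukin-21 receptor, was called between the subsets in allogeneic recipients, and was not called between transplants or organs in either subset. CD8 cells gave 3.18, 3.11 and 2.80 in the syngeneic spleen, 3.36, 3.16 and 3.21 in the allogeneic spleen, and 3.10, 3.27, 2.73 and 3.22 in the ovary, and these groups overlapped. CD4 cells gave 2.98 and 2.72 in the syngeneic spleen, 2.67 and 1.90 in the allogeneic spleen, and 2.35 and 2.25 in the ovary. The allogeneic minus syngeneic difference was 0.21 ± 0.21 in CD8 cells and -0.57 ± 0.25 in CD4 cells (95% interval -1.12 to -0.02, adjusted p = 0.151), and neither was called. Without allogeneic splenic CD4 replicate 1 the CD4 difference was -0.96 and was called (adjusted p = 0.0241).

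Il9r, the private chain of the interleukin-9 receptor, was at the edge of detection, with 8 of 16 arrays well above background. Its values were -3.52, -4.01 and -3.77 in syngeneic and -4.13, -4.51 and -4.47 in allogeneic splenic CD8 cells, with 1 of 3 arrays above background in each, and -4.35, -4.50, -3.59 and -3.95 in ovarian CD8 cells, with 3 of 4. In CD4 cells they were -3.17 and -3.20 in the syngeneic spleen with both arrays above background, -4.04 and -3.44 in the allogeneic spleen with none, and -3.04 and -2.60 in the ovary with 1. The other probe was well above background on 3 arrays. Il9r was not called between transplants or between organs in either subset.

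The comparison of allogeneic with syngeneic splenic cells asks how the T cells of an allogeneic graft differ from those of a matched graft. In CD8 cells Il2ra, Il2rb and Il15ra rose and Il7r and Il4ra fell, while Il2rg, Il21r and Il9r were not called. That is 5 of 8 receptor genes called, where 38.4% of all features were called in this comparison. The arrays of the 2 groups did not overlap for 6 of 8 receptor genes and for 53.5% of all features in CD8 cells, and for 6 of 8 and 51.2% in CD4 cells. The median over the 8 genes was 0.31 and that over all features -0.16. The latter was -0.084 after quantile normalization and -0.043 after normexp background correction with quantile normalization, and the directions of the 5 called genes were the same under both. In CD4 cells Il2rb and Il15ra rose and Il4ra fell, 3 of 8 called at a background of 16.1%, with a median of 0.25 over the 8 genes and 0.039 over all features.

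**Figure D2:**
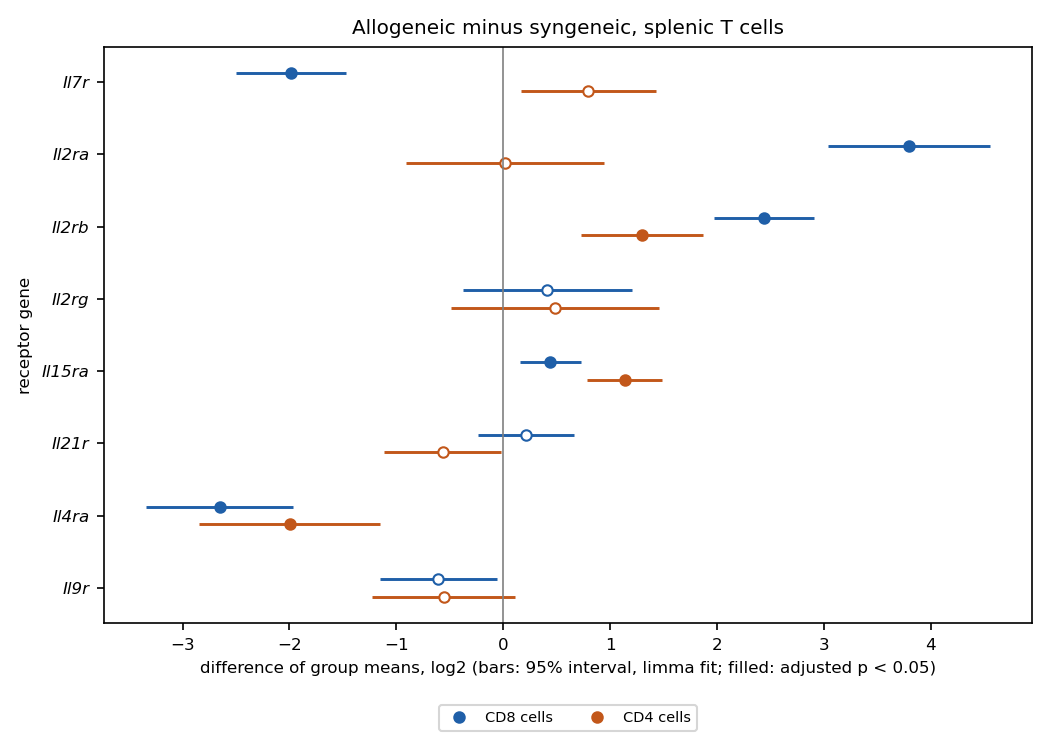
Difference between allogeneic and syngeneic splenic cells on the log2 scale (horizontal axis) for the 8 receptor genes (vertical axis), in CD8 cells (blue, 3 against 3 arrays) and CD4 cells (orange, 2 against 2). Bars are 95% intervals of the limma fit and filled points have an adjusted p under 0.05; Il7r lies at -1.98 in CD8 and 0.80 in CD4 cells, Il2ra at 3.79 and 0.01, and Il4ra below 0 in both.

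Whether the subsets responded differently to the transplant was tested by the interaction of subset and transplant, in which 11.9% of all features were called. Of the 8 receptor genes 4 were called. The CD8 difference minus the CD4 difference was -2.78 ± 0.37 for Il7r (adjusted p = 0.00113) and 3.78 ± 0.55 for Il2ra (adjusted p = 0.00185). Both calls were kept when any 1 array was left out and under every other alternative run except slide 2 alone, where the values were -3.03 and 3.61. The Il2ra interaction was 1.69 (adjusted p = 0.0161) with normexp correction and quantile normalization. The NK markers were called positive in this interaction for 3 of 3 tested. Between transplants 2 of 3 NK markers fell in CD4 cells and 1 of 3 rose in CD8 cells, and Il2rb rose in both. Ncr1, Klrb1c and Klrk1 passed the background threshold on no allogeneic splenic CD4 array. The part of the NK markers in the Il2rb interaction was not tested. For Il2rb the interaction was 1.14 ± 0.34 (adjusted p = 0.0469 by limma) and for Il15ra -0.69 ± 0.21 (adjusted p = 0.0478). These last 2 calls were lost under 21 of 29 and 22 of 30 alternatives, among them most omissions of a single array (adjusted p up to 0.155 for Il2rb and 0.200 for Il15ra), and Il15ra turned to 0.26 with its other probe. For Il4ra the interaction was -0.65 ± 0.50 (95% interval -1.74 to 0.44, adjusted p = 0.406).

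Of 42 other genes of the pathway, in lists of ligands, further receptor chains, kinases and STATs, feedback regulators, survival and growth targets and transcription factors, 38 were tested, and Il9, Il15, Tslp and Il13ra1 did not pass the filter. In CD8 cells 14 of the 38 rose and 8 fell between syngeneic and allogeneic spleen, at the background of 38.4% of all features called. The median of the 38 differences was 0.065 against -0.16 over all features. Of the 22 calls 19 were kept when any 1 array was left out. The exceptions were Jak3, Myc and Stat5a, which all lost theirs without allogeneic splenic CD8 replicate 2. Jak3 and Myc also lost them without allogeneic replicate 1 and syngeneic replicate 3, Jak3 and Stat5a without syngeneic replicate 2, and Stat5a without allogeneic replicate 3 and syngeneic replicate 1. On slide 2 alone 6 of the 22 kept their call, namely Cish, Crlf2, Eomes, Il21, Prdm1 and Ptpn6.

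Among the ligands Il21, a cytokine made by helper T cells, was not well above background on any syngeneic CD8 array and was at least 37.5-fold higher in allogeneic CD8 cells (adjusted p = 1.11e-07), and Il7 rose by 1.99 ± 0.49, with 1 of 3 syngeneic arrays above background. With normexp correction and quantile normalization the rises were 2.88 (7.38-fold) for Il21 and 0.38 for Il7. Il2, Il4 and Il13 were not called. Crlf2, the chain that joins Il7r in the receptor for thymic stromal lymphopoietin, rose by 1.51 ± 0.17. Among the kinases and STATs Jak3 rose by 0.97 ± 0.32, Stat3 rose by 0.71 ± 0.17 and Stat5a fell by 0.44 ± 0.14, with 4 of 7 not called. Of 6 feedback regulators Cish rose by 2.49 ± 0.16 (adjusted p = 3.04e-07) and Ptpn6, which encodes the phosphatase SHP-1, fell by 1.16 ± 0.17, while the 3 Socs genes and Ptpn2 were not called.

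Among survival and growth targets in CD8 cells Bcl2, the anti-apoptotic gene maintained by interleukin-7, fell by 1.04 ± 0.16, Mcl1 fell by 0.75 ± 0.17 and Myc fell by 0.63 ± 0.21, while the pro-apoptotic Bcl2l11 rose by 0.95 ± 0.14. Of 13 transcription factors 7 rose and 3 fell. Foxo1, an activator of Il7r, fell by 1.12 ± 0.17, and Klf2 and Bcl6 fell by 1.18 ± 0.21 and 1.21 ± 0.24. Gfi1, a repressor of Il7r, rose by 1.28 ± 0.20, Tbx21 and Eomes, which activate Il2rb, rose by 2.95 ± 0.33 and 1.80 ± 0.20, and Prdm1 rose by 4.40 ± 0.25. Foxp3, Runx3 and Gata3 rose by 2.20 ± 0.36, 1.05 ± 0.16 and 0.79 ± 0.17. With normexp correction and quantile normalization the rises of Prdm1 and Foxp3 were 3.39 and 1.04. Bcl2l11 was at 0.019 and not called when probes had to be above background on all arrays, which leaves another of its probes. The factors Gabpa, Ets1 and Runx1 were not called. In CD4 cells Foxo1 also fell and Gfi1 also rose, at an Il7r difference of 0.80 that was not called. Il2rb and Eomes rose there, and Tbx21 was not called. The part of these factors in the receptor differences was not tested.

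**Figure D3:**
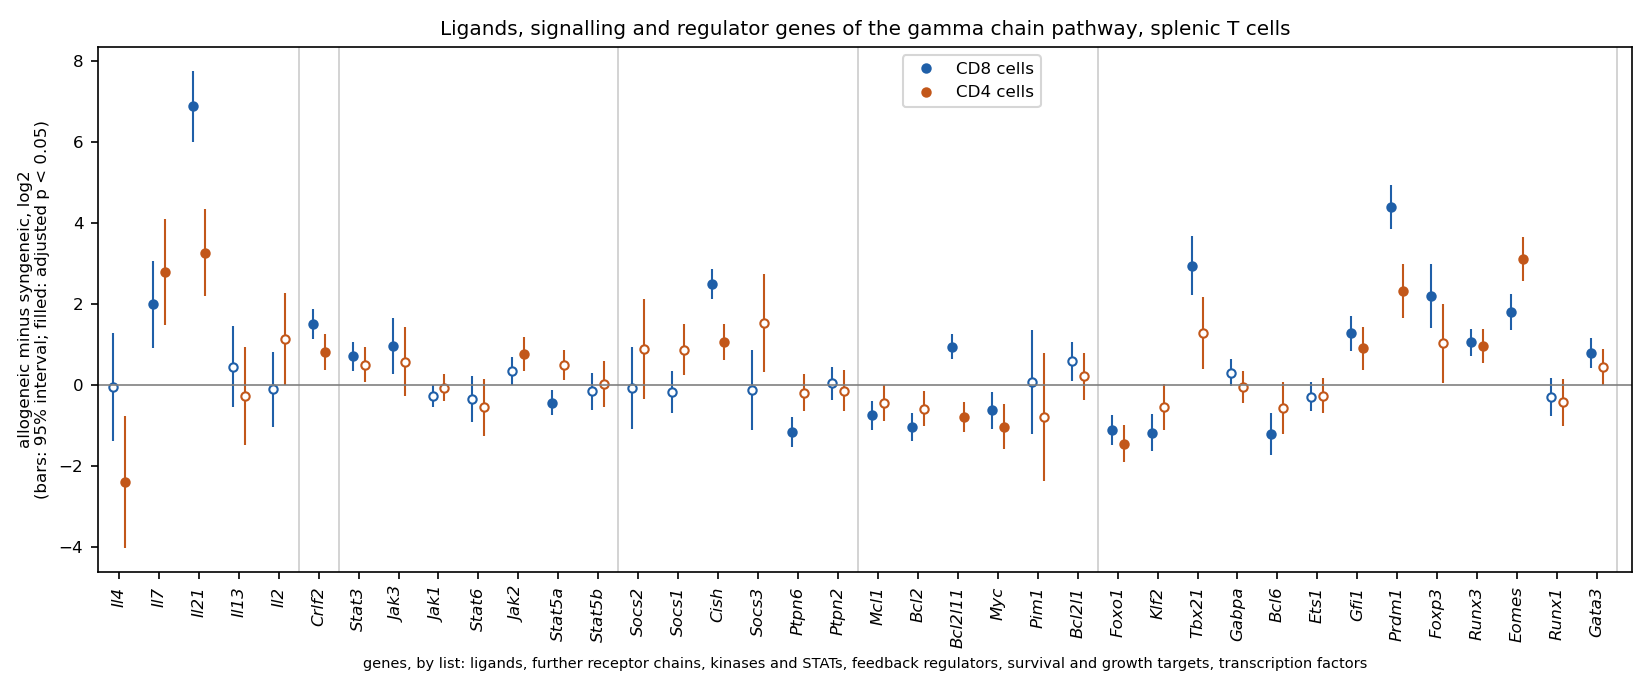
Difference between allogeneic and syngeneic splenic cells on the log2 scale (vertical axis) for the 38 tested ligand, signalling and regulator genes (horizontal axis, grouped by list), in CD8 cells (blue) and CD4 cells (orange). Bars are 95% intervals of the limma fit and filled points have an adjusted p under 0.05; 14 genes rose and 8 fell in CD8 cells, and 9 rose and 4 fell in CD4 cells.

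In CD4 cells 9 of the 38 rose and 4 fell, at a background of 16.1%, with a median of 0.33 against 0.039 over all features. Of these 13 calls 5 were kept when any 1 array was left out: Il21, which rose by 3.27 ± 0.49, Foxo1, which fell by 1.45 ± 0.21, Runx3, which rose by 0.97 ± 0.19, Prdm1, which rose by 2.32 ± 0.30, and Eomes, which rose by 3.11 ± 0.25. Cish rose by 1.06 ± 0.20, a call lost without syngeneic splenic CD4 replicate 1, as were those of Bcl2l11, which fell by 0.78 ± 0.17, and of Jak2, Gfi1 and Crlf2, which rose by 0.76 ± 0.19, 0.91 ± 0.24 and 0.82 ± 0.21. The last 3 were also lost without allogeneic splenic CD4 replicate 1. The Bcl2l11 call was also lost with normexp correction, with probes above background on all arrays and with the mean of the gene's probes. Il4 fell by 2.40 ± 0.75 (adjusted p = 0.0480), a call lost in 16 of 28 alternatives. Il7 was at least 2.55-fold higher, with 1 of 2 allogeneic and 0 of 2 syngeneic arrays above background. Il7 and Myc, which fell by 1.03 ± 0.25, lost their calls without syngeneic splenic CD4 replicate 2. Il7 was at 0.37 and not called with normexp correction and quantile normalization.

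The interaction of subset and transplant was called for 7 of the 38 genes, at a background of 11.9%, positive for 4 and negative for 3. It was 1.43 ± 0.26 for Cish, 1.72 ± 0.22 for Bcl2l11 and 2.08 ± 0.39 for Prdm1, all kept when any 1 array was left out. With normexp correction and quantile normalization Bcl2l11 was at 0.93 and Prdm1 at 1.15, and Bcl2l11 was at 0.36 and not called with probes above background on all arrays. Il21 was called with a positive interaction, which rests on syngeneic CD8 arrays below background and so has no size that can be stated. It turned to -0.17 with normexp background correction and quantile normalization. Stat5a, Eomes and Ptpn6 had negative interactions of -0.93 ± 0.22, -1.31 ± 0.32 and -0.98 ± 0.27. Eomes lost its call without syngeneic splenic CD4 replicate 1 or allogeneic splenic CD8 replicate 2, Stat5a without either syngeneic splenic CD4 array, and Ptpn6 without any of 10 arrays.

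The comparison of ovarian with splenic cells of allogeneic recipients asks what distinguishes the T cells recovered from the ovary. Without a syngeneic ovarian group, an effect of the organ and one of the allogeneic transplant within it cannot be told apart. Il7r was lower in the ovary in both subsets, and it was the 1 receptor gene of 8 called in each, where 0.539% of all features were called in CD8 cells and 0.907% in CD4 cells. The other 7 genes had differences from -0.33 ± 0.34 for Il2rg to 0.31 ± 0.33 for Il2ra in CD8 cells. In CD4 cells, Il9r aside, they ran from -0.16 ± 0.16 for Il15ra to 0.66 ± 0.39 for Il4ra. Il9r was at least 1.32-fold higher in ovarian CD4 cells, with 1 of 2 ovarian and 0 of 2 splenic arrays above background, and was not called. In CD8 cells the interval for Il2rb ran from -0.30 to 0.57 and that for Il4ra from -0.45 to 0.83. The interval for Il2ra in CD8 cells ran from -0.40 to 1.02. Ovarian and splenic CD8 arrays did not overlap for 1 of 8 receptor genes and for 12.7% of all features. The 2 ovarian and 2 splenic CD4 arrays did not overlap for 5 of 8 receptor genes, Il7r, Il2rb, Il15ra, Il4ra and Il9r, where 33.7% of all features did not overlap, with Il2rb at 0.39 ± 0.26 and Il4ra at 0.66 ± 0.39, and of these 5 only Il7r was called. The median over the 8 genes was -0.0041 in CD8 cells and 0.071 in CD4 cells, against 0.025 and -0.042 over all features.

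**Figure D4:**
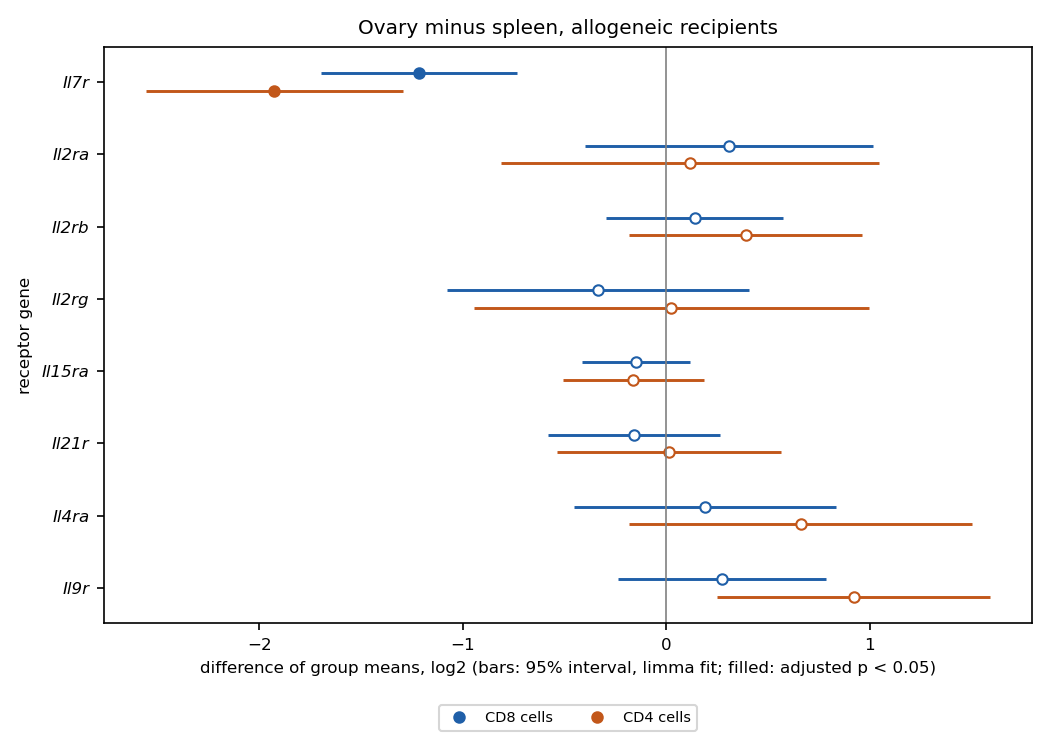
Difference between ovarian and splenic cells of allogeneic recipients on the log2 scale (horizontal axis) for the 8 receptor genes (vertical axis), in CD8 cells (blue, 4 against 3 arrays) and CD4 cells (orange, 2 against 2). Bars are 95% intervals of the limma fit and filled points have an adjusted p under 0.05; only Il7r is filled, at -1.21 in CD8 and -1.92 in CD4 cells.

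The interaction of subset and tissue was called by limma for 0 of 22831 features, a background of 0%, with 2539 features and 0 of the 8 receptor genes at an unadjusted p under 0.05. Quantile normalization called 38 features, slide 1 alone called 1542, and leaving out allogeneic splenic CD4 replicate 2 called 1381. No receptor gene was called in this interaction under any alternative run. For Il7r it was 0.71 ± 0.36 (95% interval -0.08 to 1.51, adjusted p = 0.480).

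Of the 38 other pathway genes 2 were called between ovary and spleen in each subset, at the backgrounds of 0.539% and 0.907%, Cish and Il13, and both were higher in the ovary. Cish measured 3.47, 3.42 and 3.42 in allogeneic splenic CD8 cells and 4.73, 4.76, 4.32 and 4.82 in ovarian CD8 cells, with 0.83, 0.91 and 1.09 in the syngeneic spleen, so the 3 groups stood apart. It rose by 1.22 ± 0.15 in ovarian CD8 cells (adjusted p = 0.00285), a call kept when any 1 array was left out, with 1.30 on slide 1 and 1.15 on slide 2. In CD4 cells Cish measured 2.94 and 3.30 in the syngeneic spleen, 4.38 and 3.99 in the allogeneic spleen, and 5.17 and 5.15 in the ovary. The rise in ovarian CD4 cells was 0.98 ± 0.20 (adjusted p = 0.0460), with 0.79 on slide 1 and 1.16 on slide 2, and this call was lost under 20 of 29 alternatives, among them leaving out either ovarian CD4 array. In each subset the ovarian arrays were thus the highest in Cish and the lowest in Il7r.

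Il13, a type 2 cytokine whose receptor uses Il4ra without the common gamma chain, did not rise well above background in the allogeneic spleen, on any array. In ovarian CD8 cells it measured -2.74, -3.06, -1.78 and -2.86, all above background and at least 4.08-fold higher than in the spleen (adjusted p = 0.00292), a call lost on either slide alone and with normexp background correction (0.62). In ovarian CD4 cells it measured 0.77 and 1.70, at least 22.0-fold higher (adjusted p = 0.00367), against 8.33-fold with normexp correction and quantile normalization. The remaining 36 genes were not called in either subset, Il7, Il2, Il21, Jak1, Jak3, Foxo1 and Gfi1 among them. Of the theca and luteal cell markers 2 of 4 tested rose in ovarian CD8 cells and 1 of 4 in ovarian CD4 cells, and 0 of 3 granulosa markers tested rose in either. The shares of all features called were 0.539% and 0.907%. The theca and luteal sum ran from 9.91 to 19.0 in ovarian CD8 cells against 0.585 to 23.1 in the allogeneic spleen, and from 16 to 17.3 against 11 to 25.9 in CD4 cells. Hsd3b1 and Cyp11a1 were well above background on at least 1 array of each ovarian group and on no splenic array of any group. Of 6 granulosa markers, 1 was above background on no ovarian CD8 array, against 4 in allogeneic splenic CD8 cells. In CD4 cells these counts were 3 and 4. The part of ovarian RNA in these results was not tested.

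CD8 and CD4 cells from the same source were compared to see which receptor chains set the subsets apart. In the syngeneic spleen Il2ra was the only receptor gene called, lower in CD8 cells by a difference of -6.35 ± 0.39 (adjusted p = 2.94e-06; -4.34 with normexp correction and quantile normalization), which makes 1 of 8 at a background of 4.14%. In the allogeneic spleen 4 of 8 were called at a background of 29.4%. Il7r (-2.61 ± 0.26) and Il2ra (-2.57 ± 0.39) were lower in CD8 cells, and Il2rb (1.26 ± 0.24) and Il21r (0.96 ± 0.23) were higher. The Il21r call was lost without allogeneic splenic CD4 replicate 2, and its difference was 0.59 on slide 1 and 1.31 on slide 2. Il4ra stood at -0.72 ± 0.35 (adjusted p = 0.142) there, with the slide as a block at -0.80 (adjusted p = 0.0302) and with its other probe at -0.98 (adjusted p = 0.00667).

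In the ovary 6 of 8 receptor genes were called between the subsets at a background of 17.5%. Arrays of the subsets did not overlap for 7 of 8 receptor genes and 48% of all features in the ovary, 6 of 8 and 49.3% in the allogeneic spleen, and 3 of 8 and 34.3% in the syngeneic spleen. Il7r (-1.89 ± 0.25, adjusted p = 0.000491), Il2ra (-2.38 ± 0.37, adjusted p = 0.00149), Il4ra (-1.19 ± 0.34, adjusted p = 0.0310) and Il9r (-1.28 ± 0.27, adjusted p = 0.00749) were lower in CD8 cells. Il2rb (1.0 ± 0.23, adjusted p = 0.0113) and Il21r (0.78 ± 0.22, adjusted p = 0.0301) were higher. Without ovarian CD4 replicate 2, 1 of the 2 dimmest arrays, only Il7r and Il2ra were called. Il4ra and Il21r also lost their calls without ovarian CD4 replicate 1 or ovarian CD8 replicate 1, 2 or 4. The Il9r call rests on probes of which 3 of 4 CD8 arrays and 1 of 2 CD4 arrays were above background, and it was lost with the other probe and with normexp correction (-0.22). Macrophage and monocyte markers, of a cell type that also expresses Il4ra, were lower in CD8 cells for 5 of 6 genes in the ovary (sums from 43.9 to 70.1 against 85.7 to 126) and 6 of 6 in the allogeneic spleen (35.7 to 57.6 against 93.9 to 165). NK markers, of a cell type that expresses Il2rb, were higher in CD8 cells for 2 of 3 tested in the ovary (sums from 2.27 to 3.19 against 0.522 to 0.628) and 2 of 3 in the allogeneic spleen (2.26 to 3.10 against 0.213 to 0.291). Between the subsets in the allogeneic spleen 29.4% of all features were called. The part of either marker list in the subset differences was not tested.

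**Figure D5:**
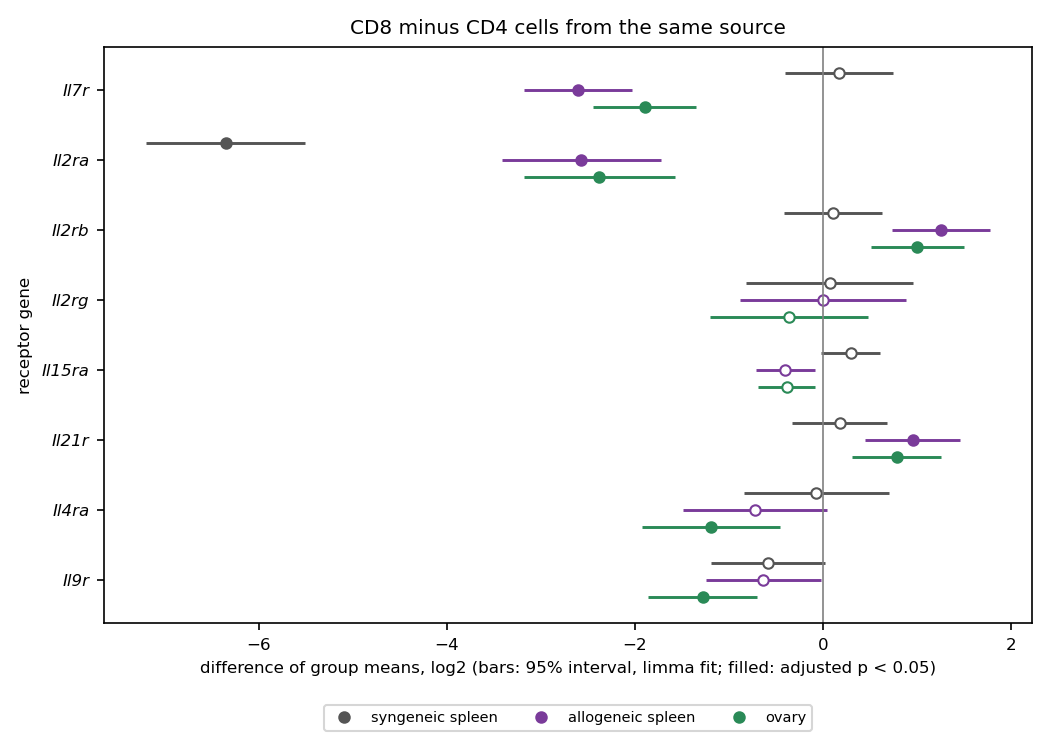
Difference between CD8 and CD4 cells from the same source on the log2 scale (horizontal axis) for the 8 receptor genes (vertical axis), in the syngeneic spleen (grey, 3 against 2 arrays), the allogeneic spleen (purple, 3 against 2) and the ovary (green, 4 against 2). Bars are 95% intervals of the limma fit and filled points have an adjusted p under 0.05; Il7r is near 0 in the syngeneic spleen (0.18) and below it in both allogeneic sources.

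Of 5 ligands tested, Il2, Il4, Il13 and Il21 were called lower in CD8 than in CD4 cells in each source, and Il7 was called in none. Il4 was not well above background on any CD8 array and was at least 10.2-fold lower in ovarian CD8 than CD4 cells, at least 13.0-fold lower in the allogeneic spleen and at least 46.8-fold lower in the syngeneic spleen. Il2 differed by -3.11 ± 0.45, -3.33 ± 0.48 and -2.09 ± 0.48, the last of these lost without syngeneic splenic CD4 replicate 1 or 2 or syngeneic splenic CD8 replicate 1 or 2. Il21 differed by -2.43 ± 0.43 in the ovary and -2.12 ± 0.45 in the allogeneic spleen, and was at least 16.9-fold lower in the syngeneic CD8 cells. Il13 differed by -3.85 ± 0.48 in the ovary, and in the allogeneic spleen no array of either subset was above background, so that its call there rests on no measured level. In the syngeneic spleen Il13 was at least 1.43-fold lower, a call lost without syngeneic splenic CD4 replicate 2. With normexp correction and quantile normalization the differences were smaller: Il4 was 2.41-fold, 2.75-fold and 10.2-fold lower in the ovary, allogeneic and syngeneic spleen. Il2 was then at -1.45, -1.18 and -0.62, Il21 at -2.15 in the syngeneic spleen and Il13 at -2.58 in the ovary. The call of Il2 was lost in the syngeneic spleen and that of Il13 in both spleens.

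Among the signalling genes Socs2 was lower in CD8 cells in all 3 sources (-1.57 ± 0.49 in the ovary, -3.08 ± 0.52 in the allogeneic and -2.12 ± 0.52 in the syngeneic spleen). The ovarian and syngeneic calls of Socs2 were each lost without most single arrays, the CD4 arrays of that source included. Socs1 was lower in the ovary (-0.97 ± 0.25) and allogeneic spleen (-1.06 ± 0.26), both lost without CD4 replicate 1 of that source. Cish was lower in CD8 cells in the syngeneic spleen (-2.18 ± 0.18) and in the allogeneic spleen (-0.74 ± 0.18, lost without allogeneic splenic CD4 replicate 1), and was -0.50 in the ovary, where it was not called. Stat5a was lower in the ovary (-0.65 ± 0.15, lost without ovarian CD4 replicate 2) and allogeneic spleen (-0.82 ± 0.16). Eomes was higher in CD8 cells in all 3 sources (2.77 ± 0.22, 2.38 ± 0.23 and 3.69 ± 0.23) and Foxp3 lower (-4.52 ± 0.39, -3.41 ± 0.41 and -4.58 ± 0.41). Gata3 was lower in all 3 (-0.99 ± 0.18, -0.86 ± 0.18 and -1.20 ± 0.18) and Runx3 higher (0.93 ± 0.17, 0.85 ± 0.17 and 0.77 ± 0.17, the last lost without either syngeneic splenic CD4 array or syngeneic splenic CD8 replicate 2). Bcl2l11 was higher in the ovary (1.64 ± 0.15) and the allogeneic spleen (1.98 ± 0.16), where 1 of 2 CD4 arrays was above background, and both calls were lost with probes above background on all arrays. In the allogeneic spleen Ptpn6 (-0.81 ± 0.19) and Bcl6 (-1.23 ± 0.27) were lower in CD8 cells and Myc (1.15 ± 0.23) was higher. Jak2 and Runx1 were lower and Gfi1 higher in CD8 cells of both the allogeneic spleen and the ovary, Tbx21 was higher in the allogeneic spleen and Jak1 in the ovary, and Prdm1 was lower in the syngeneic spleen (-1.43 ± 0.28), all of these calls lost without at least 1 CD4 array of that source. With normexp correction and quantile normalization Socs2 was at -1.64 in the allogeneic and -1.0 in the syngeneic spleen, Foxp3 at -3.70 in the ovary and -3.27 in the syngeneic spleen, and Bcl2l11 at 1.0 in the ovary and 1.01 in the allogeneic spleen, while Gfi1 was not called in either source. In all, 5 of the 38 were higher and 11 lower in ovarian CD8 cells, 6 and 14 in the allogeneic spleen, and 2 and 9 in the syngeneic spleen, at backgrounds of 17.5%, 29.4% and 4.14% of all features called. Of these, 9, 13 and 6 calls were kept when any 1 array was left out.

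Across the 16 arrays, which share their groups, the receptor genes followed few common courses. Il2rb and Il4ra ran in opposite directions (Pearson r = -0.94 over 16 arrays), as did Il2rb and Il7r (-0.83), while Il7r and Il4ra ran together (0.68) and Il7r and Il2ra were near 0 (-0.01). These are descriptions over arrays in 6 groups and carry no test. Among 13529 features compared, those most like Il7r over the 16 arrays were Ssbp2 (r = 0.98), Arhgap5 (0.96) and Rarg (0.96), and those most like Il2ra were Il1rl1 (0.97), Bmp7 (0.96) and Lrrn3 (0.96). For Il2rb they were Etfb, Spc24 and Cmc1 (0.99 each), and for Il4ra Cyth1 (0.98), Galnt10 (0.98) and Sesn1 (0.97). Those most like Il15ra were Tspan3 (0.96), Erich3 (0.95) and Dgki (0.95), and those most like Il21r Enpp4 (0.96), Lamtor3 (0.95) and Ecsit (0.95). Il2rg and the dim Il9r had weaker companions, H2-M11 (0.91), H2-K2 (0.90) and Tmem161a (0.89) for the former and Runx1, Rsu1 (0.89 each) and Fam217a (0.88) for the latter.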

How the data were processed

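RNA of double-sorted donor T cells was measured on 16 one-colour Agilent arrays in 6 groups, which follow the sample titles. The deposited scanner files hold spot intensity values, background-subtracted by the scanner software (per the file headers, Feature Extraction 11.5.1.1), and the deposited series table holds log2 values. On every array that table correlated at 0.9998 or more with log2 intensity minus the array's 75th percentile minus the probe's median over arrays. The series table served as an alternative. From the processed intensity, log2 minus each array's 75th percentile was computed over the 55681 probes that are no controls. Of these, 27656 were named through RefSeq (GRCm38.p6) accessions as 20972 genes. The 31116 probes that some group had well above background on all of its arrays gave 22831 features, which were fitted in limma 3.58.1 (R 4.3.3; lmFit and eBayes, 1 mean per group, all arrays, Benjamini-Hochberg adjustment). No spot was saturated. Where a group had no array well above background, a fold is a lower bound: the bright group's mean against the higher, on each array, of the lowest signal well above background and the probe's own. Tested on simulated data for ovarian against splenic CD8 cells (22831 features, 200 changed by 2 on the log2 scale), the fit recovered 79% of them, and 4.24% of calls were false. The simulated noise was independent between arrays, without slide effects, so these shares need not hold for the real arrays or for smaller differences. The number of arrays limits the precision. The receptor genes and gene lists were chosen with earlier results of these data known. Some genes of these lists are not reported here and enter no count or sum. All receptor genes and every other called pathway gene are named, with the 3 features most like each receptor gene. Alternatives were quantile normalization, normexp correction, the series table, filters, probes, slides, a replicate block, the groups in the fit, array weights and leaving out arrays.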

Additional observations from a re-analysis of the deposited data

Results flagged for a closer look

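Among 38 genes checked for an array far from the other 3 in the ovarian CD8 group, 9 stood apart and none was a receptor gene; chance flags about 1 in 20. Replicate 3 gave the lowest level of Jak3 (1.37), Il7 (-4.71), Ptpn6 (3.91), Prdm1 (2.37), Il21 (-0.22) and Socs1 (2.54) and the highest of Myc (1.05) and Gata3 (3.80), all log2 signals relative to the array's 75th percentile. Replicate 1 gave the lowest level of Bcl2 (3.27). The allogeneic minus syngeneic difference differed between CD8 and CD4 cells by limma's interaction test for Il7r (-2.78), Il2ra (3.78), Il2rb (1.14) and Il15ra (-0.69).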

How the results depend on the processing

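Counts of receptor genes called moved by over 1.5 times as follows. Slide 2 alone, which leaves 2 residual degrees of freedom, called 0 in every comparison except allogeneic against syngeneic CD8 cells. Between ovary and spleen, CD8 cells gave 0 with no filter and with only the groups compared, and 3 with array weights, while CD4 cells gave 0 with only the groups compared and with array weights. Allogeneic against syngeneic CD4 cells gave 1 with normexp correction and 0 with only the groups compared. CD8 against CD4 cells gave 2 in the ovary with normexp correction and without the 2 dimmest arrays, 2 in the allogeneic spleen with only the groups compared, and 0 in the syngeneic spleen with probes above background on all arrays, a filter that drops Il2ra. The interaction of subset and transplant gave 2 with no filter, on slide 1 alone, with only the groups compared and with array weights. Leaving out 1 array gave 0 to 1 and 1 to 1 between ovary and spleen (CD8, CD4), 4 to 6 and 1 to 4 between transplants, 2 to 6, 3 to 5 and 1 to 1 between subsets (ovary, allogeneic and syngeneic spleen), and 0 to 0 and 2 to 3 for the interactions with tissue and transplant. The interaction with transplant turned to 0.26 for Il15ra with its other probe and to -0.17 for Il21 with normexp correction, and the cause was not tested. With the replicate number as a block, 0 receptor genes were called between ovarian and splenic CD8 cells. Deviations of same-numbered arrays correlated at 0.065, 0.164 and 0.322 there, each pair lying on the same slide. In the other comparisons they ran from -0.44 (different slides) to 0.455 (same slide). Pairing and slide cannot be told apart by these values, and the numbers were not taken to pair the arrays. Dim probes, Il9r above all, limit what their differences can show.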
